A study of Homo sapiens with 24 samples.

Results

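The MLX and MYC-MAX network was followed here through 10 of the 37416 genes in the files: MLX, its partners MLXIP and MLXIPL, the MAX side of the network with MAX, MYC, MNT, MXD1 and MXI1, and the target genes TXNIP and ARRDC4. The set was chosen by the level of MLX RNA, which was lower in the ADAR1-depleted arm of each of the 4 cell lines, and the question was whether its partners and targets moved with it. The values that chose MLX are the same ones described below, so its own change is given as a description without a test. The other 9 genes are named for their roles in the network.

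RNA was sequenced from 4 human breast cancer lines, BT549, HCC1806, MDAMB231 and MDAMB468, which the series calls triple-negative. Each line received lentivirus with a short hairpin RNA, which targeted ADAR1 in the shADAR1 arm and nothing in the shNT control arm, and every library therefore comes from infected cells selected with puromycin (24 h of infection, then 72 h at 2 µg/ml). There were 3 biological replicates of each line and arm, so 24 libraries in 8 groups. The labels give neither the hairpin sequence nor the number of hairpins, so an effect of the hairpin and an effect of lower ADAR1 cannot be told apart. The labels give 1 medium for all cells and name no change of glucose.

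MLX and MAX are the central dimerisation partners of an extended family of basic helix-loop-helix leucine zipper factors. MLX pairs with MLXIP (MondoA) or MLXIPL (ChREBP), which sense glucose-derived metabolites and switch on genes such as TXNIP and ARRDC4, and it can also pair with MNT and MXD1. MAX pairs with MYC to activate growth genes, or with MNT and the MXD proteins, MXI1 among them, to repress them. The dimers bind related E-box sequences, and glucose-response elements are pairs of E-box-like sites a few bases apart.

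Matches to E-box letters are shown because MLX and MAX dimers bind sequences of this kind. RefSeq start-site windows on GRCh38.p14, each running from 250 bases before to 50 after the start, were found for 9 of the 10 genes, all except MYC. The RefSeq start of MXD1 lies 17421 bases and that of MAX 412 bases from the gene start listed in the files, so these windows do not cover the listed start, and the other 7 starts lie within 58 bases of it. In these windows CACGTG, which reads the same on both strands, occurred in those of ARRDC4, MLX and MNT. The paired pattern CACGNNNNNNNCACG, searched on both strands, occurred in that of TXNIP alone among the 9. Of 35116 such windows, 7.26% held the first and 0.609% the second. The stretches follow 5′ to 3′ along the strand of the gene, with capitals marking CACGTG or, in TXNIP, both E-box-like sites of the pair in full, beyond the letters that the searched pattern fixes. The TXNIP stretch is the minus strand of chr1:145996624-145996694, with its pair starting 88 bases before the start site.
TXNIP: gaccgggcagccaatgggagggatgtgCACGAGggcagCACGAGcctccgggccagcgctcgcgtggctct
The ARRDC4 stretch is the plus strand of chr15:97960466-97960525, with the motif 210 bases before the start site.
ARRDC4: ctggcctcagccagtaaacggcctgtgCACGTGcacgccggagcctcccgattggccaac
That of MLX is the plus strand of chr17:42567023-42567082, with the motif 50 bases before the start site.
MLX: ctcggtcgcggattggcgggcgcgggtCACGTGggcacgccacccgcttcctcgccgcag
That of MNT is the minus strand of chr17:2401221-2401280, with the motif 193 bases before the start site.
MNT: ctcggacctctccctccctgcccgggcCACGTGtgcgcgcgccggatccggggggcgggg
A match is a description of the letters and not a measured binding site, and windows without a match say nothing about binding elsewhere.

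Total counts ran from 10370645 (MDAMB231 shNT replicate 1) to 97218217 (BT549 shADAR1 replicate 2). In each line the 3 shADAR1 libraries had less ADAR, the targeted gene, than any shNT library, at 26.1%, 33.1%, 21.8% and 37.1% of the shNT mean in BT549, HCC1806, MDAMB231 and MDAMB468. Of the 5 epithelial markers checked (EPCAM, CDH1, KRT8, KRT18 and KRT19), none averaged over 1 CPM (the count scaled to the library total) in BT549, whose summed level for them was at most 1.24, whereas the mesenchymal genes VIM, ZEB1, CDH2 and FN1 summed to at least 4191. The summed level of 5 markers of blood and vessel cells was at most 7.61 CPM in any library. ESR1, PGR and ERBB2 summed to between 75.5 and 137 CPM, and ERBB2 was the highest of them in all 4 lines. ESR1 averaged 21.4 CPM in HCC1806 and 7.36 in MDAMB468, against 0.0096 in BT549 and 0.493 in MDAMB231. In MDAMB231 the epithelial sum was 935 to 1162 CPM, with CDH1 at 0.157. Its mesenchymal sum was 4606 to 6041, with CDH2 at 0.524. The epithelial sums of HCC1806 and MDAMB468 were at least 2547 and 3314, and their mesenchymal sums at most 341 and 107.

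MLX (ENSG00000108788, chromosome 17, 42567068 to 42573239), the shared partner of MondoA and ChREBP, was lower in shADAR1 than in shNT in every line, with no overlap of the arms. Levels are given as CPM after TMM scaling, the trimmed-mean scaling of library sizes, in the order of replicates 1, 2 and 3. In BT549, MLX stood at 14.5, 15.8 and 15.7 in shADAR1 and at 33.0, 37.1 and 28.3 in shNT, or 46.8% of the shNT mean. In MDAMB231 it stood at 20.4, 25.6 and 22.8 against 47.1, 52.1 and 53.7, or 45%. These were the lines with the larger falls.

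The fall was shallower in value in HCC1806 and MDAMB468, where ADAR was also less reduced (33.1% and 37.1% of shNT). Like the fall itself, this difference between lines is a description. HCC1806 had 35.1, 36.4 and 33.7 CPM of MLX in shADAR1 and 54.1, 55.6 and 50.1 in shNT, or 65.8% of the mean. MDAMB468 had 15.7, 14.7 and 16.7 against 23.7, 23.1 and 23.4, or 66.9%. Because the lines started from different levels, every shADAR1 library of HCC1806 was above every shNT library of MDAMB468. The log2 fold changes (shADAR1 minus shNT) were -1.10, -0.60, -1.15 and -0.58 in BT549, HCC1806, MDAMB231 and MDAMB468, and -0.86 on average. In RNA from whole cultures, fewer cells that carry a transcript and less of it per cell cannot be told apart.

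The 3′ end of MLX overlaps PSMC3IP, a recombination factor gene on the opposite strand, over 770 exon bases. The files do not say whether counting used strand, so how reads over those bases were assigned is not known. PSMC3IP had no value below 0: its log2 fold changes were 0.17, 0.03, 0.06 and 0.03 in the 4 lines, with an average of 0.07 (edgeR adjusted p 0.813). The longest annotated 3′ UTR of MLX, 1636 bases in GENCODE 29, holds 2 copies of ATCTTCA, letters that an earlier analysis of these data had picked out among genes lower in shADAR1. MXD1 and ARRDC4 hold 1 copy each and the other 7 genes hold 0. At least 1 copy occurs in 14.2% of 16205 genes with an annotated 3′ UTR among those tested. Their median 3′ UTR is 1229 bases, shorter than that of MLX, MXD1 (4661) or ARRDC4 (2651), so the share is not a like comparison. MLX was chosen for its fall in these data, so its copies are no separate result. The part of these letters in the fall of MLX was not tested.

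**Figure D1:**
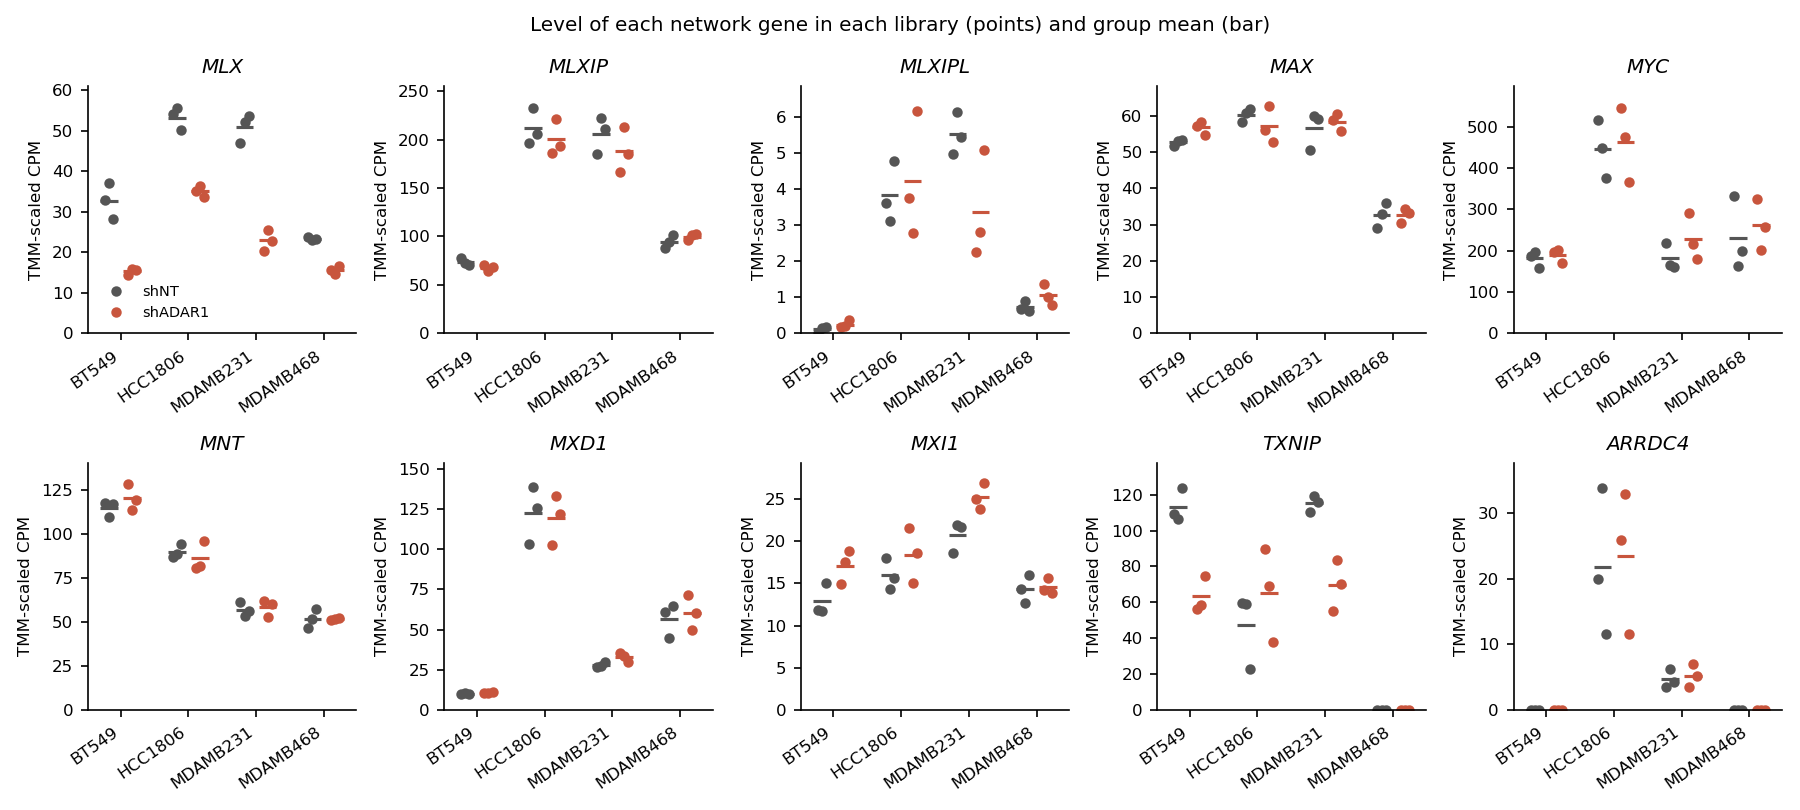
TMM-scaled CPM of the 10 network genes in the 24 libraries, with the lines on the x axis, shNT in grey and shADAR1 in red. Each point is a library and each bar the mean of 3. The arms are separate for MLX in all 4 lines, and for TXNIP the shADAR1 points lie below shNT in BT549 and MDAMB231 and mostly above in HCC1806.

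None of the other 9 genes passed the test of shADAR1 against shNT in any line. The test was edgeR's quasi-likelihood F test over all 21352 genes tested, with Benjamini-Hochberg adjusted p under 0.05 as the threshold, and it called 0.473% of all genes in BT549, 2.01% in MDAMB231, 0.0468% in HCC1806 and 0.0375% in MDAMB468. With so few calls among all genes, 0 of 9 is near the background. In the average of the 4 line effects, where 2.96% of genes were called, 0 of 9 passed again. At an unadjusted p under 0.05 there were 2 of the 9 in BT549 (MXI1 and TXNIP), 0 in HCC1806, 1 in MDAMB231 (TXNIP) and 0 in MDAMB468, where 6.42%, 4.35%, 11.7% and 3.76% of all genes did. The median log2 fold changes of the 9 were 0.08, 0.05, 0.04 and 0.09 in BT549, HCC1806, MDAMB231 and MDAMB468, where those of all genes were 0.01, 0.00, 0.00 and 0.01. Genes with a shNT group at 0 were placed at the bound that 3 counts allow without moving these medians.

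The arms of a line did not overlap for 2 of the 9 in BT549 (TXNIP lower and MAX higher), 0 in HCC1806, 3 in MDAMB231 (TXNIP lower, MXD1 and MXI1 higher) and 1 in MDAMB468 (TXNIP higher, at 2 to 6 counts against 0). Over all genes tested, 14.7%, 7.58%, 14.2% and 11% had arms that did not overlap in these lines.

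The labels do not state a pairing, but same-numbered libraries of the arms deviated together. A second fit of the same counts therefore held the replicate number of each line as a block. It called many more genes: 11.4% in MDAMB231, 5.14% in BT549, 2.1% in HCC1806 and 13.2% in the average. Of the 9 genes it called TXNIP and MXI1 in BT549, TXNIP in HCC1806, TXNIP and MYC in MDAMB231, and MXI1 and MYC in the average. TXNIP was thus the one of the 9 with calls in 3 lines of that fit, and the directions differed between lines.

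**Figure D2:**
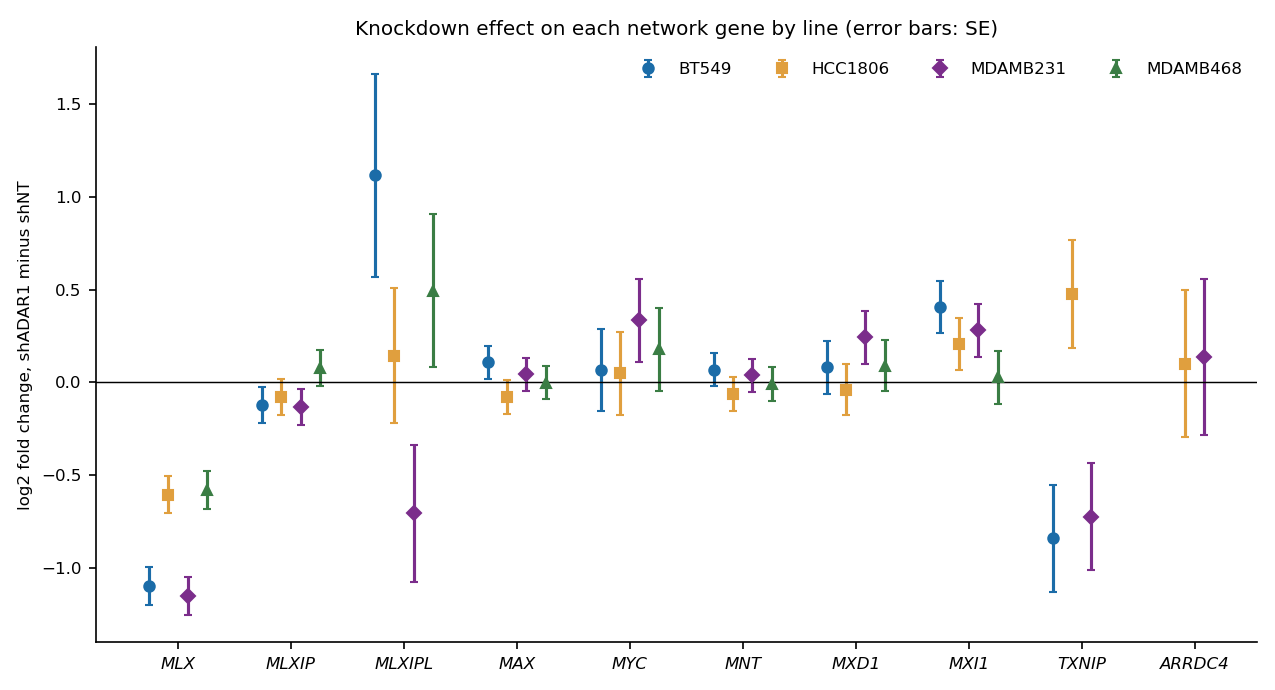
Log2 fold change of each network gene, shADAR1 minus shNT, in each line from the fit without the block. Error bars are 1 SE, and TXNIP in MDAMB468 and ARRDC4 in BT549 and MDAMB468 are left out because their libraries hold 0 to 6 counts. MLX lies between -1.15 and -0.58, TXNIP is below 0 in BT549 and MDAMB231 and above 0 in HCC1806, and MAX, MNT and MLXIP lie between -0.13 and 0.11.

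MLXIP (ENSG00000175727, chromosome 12, 122078722 to 122147347) encodes MondoA, the glucose-sensing partner of MLX. It was called in no line and not in the average, with or without the replicate block. HCC1806 had 186, 222 and 193 CPM in shADAR1 and 197, 232 and 206 in shNT. The libraries of MDAMB231 held 166, 213 and 185 against 185, 222 and 211. BT549 had 70.5, 64.4 and 68.9 against 78.3, 72.9 and 70.4, and MDAMB468 had 96.3, 101 and 102 against 88.5, 93.9 and 102. The arms overlapped in all 4 lines, but in BT549, HCC1806 and MDAMB231 each of the 9 shADAR1 libraries was below the shNT library of its number. The log2 fold changes were -0.12, -0.08, -0.13 and 0.08 in BT549, HCC1806, MDAMB231 and MDAMB468 (SE 0.0969 to 0.0974), and the average was -0.06 (SE 0.0486, edgeR adjusted p 0.68, and 0.11 with the replicate block).

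With MLX lower and the MLXIP values between -0.13 and 0.08, the amount of MLXIP RNA per MLX RNA was higher in shADAR1. Compared per kilobase of gene length (RPKM), it was 1.36 ± 0.125 in shADAR1 and 0.697 ± 0.0839 in shNT in BT549 (SD, n = 3 in each ratio given here), and 2.51 ± 0.0346 against 1.24 ± 0.0596 in MDAMB231. In HCC1806 the ratio was 1.75 ± 0.123 against 1.22 ± 0.0906, and in MDAMB468 it was 1.96 ± 0.139 against 1.24 ± 0.0924. The ratios of the arms did not overlap in any line. The MLX values that chose the set are part of this ratio, so its shift is no separate result.

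MLXIPL (ENSG00000009950, chromosome 7, 73593194 to 73624543) encodes ChREBP, the other MLX partner of this kind, best known from liver and fat. It was the least abundant of the dimerising members in each line, with a mean of at most 1.148 RPKM in shNT (MDAMB231). In MDAMB231 it stood at 2.25, 2.81 and 5.09 CPM in shADAR1 and at 4.98, 6.14 and 5.46 in shNT, with a log2 fold change of -0.70 (SE 0.369, edgeR adjusted p 0.485). Replicate 3 of shADAR1 lay within the shNT range, so the arms overlapped. In BT549 the libraries held 10, 18 and 22 counts in shADAR1 and 1, 9 and 8 in shNT, and the fitted 1.11 (SE 0.545, edgeR adjusted p 0.785) rests on those. The values were 0.14 in HCC1806 and 0.49 in MDAMB468 (edgeR adjusted p 1 in both). Over the 3 lines whose libraries all held 10 counts or more, the average was -0.02 (SE 0.224).

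TXNIP (ENSG00000265972, chromosome 1, 145992435 to 145996600), the best-known target of MondoA and MLX, encodes a protein that binds thioredoxin and limits glucose uptake. It was lower in shADAR1 in BT549 and MDAMB231 and higher in HCC1806. MLX was lowest relative to shNT in BT549 and MDAMB231, and so was ADAR (26.1% and 21.8%, against 33.1% in HCC1806 and 37.1% in MDAMB468). These cannot be told apart here, and whether TXNIP followed either was not tested. BT549 had 56.2, 58.7 and 74.9 CPM in shADAR1 and 109, 106 and 124 in shNT. The MDAMB231 libraries had 55.2, 83.7 and 70.5 against 110, 119 and 116. The arms did not overlap in these lines, and the shADAR1 means were 55.9% and 60.5% of shNT.

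HCC1806 had 89.8, 68.9 and 37.8 CPM of TXNIP in shADAR1 and 59.7, 58.8 and 22.9 in shNT. Replicate 3 was low in both arms, so the arms overlapped, yet each shADAR1 library was above the shNT library of the same number. Per pair, the log2 ratios were 0.59, 0.23 and 0.72 in HCC1806, -0.96, -0.86 and -0.73 in BT549 and -1.001, -0.51 and -0.72 in MDAMB231. All 3 pairs moved down in BT549 and in MDAMB231 and all 3 moved up in HCC1806.

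The call on TXNIP depended on whether these pairs were used. Without the block, the log2 fold changes were -0.84 (SE 0.289, edgeR adjusted p 0.389) in BT549, -0.72 (SE 0.290, adjusted p 0.295) in MDAMB231 and 0.48 (SE 0.290, adjusted p 1) in HCC1806, so that none passed. With the block they were -0.85 (edgeR adjusted p 4.5e-06), -0.73 (1.38e-05) and 0.51 (0.00428), and all passed. When each line was fitted on its own 6 libraries without a block, BT549 (-0.85, edgeR adjusted p 0.00814) and MDAMB231 (-0.73, adjusted p 0.049) passed and HCC1806 did not. Those fits called 1.34%, 0.7% and 0% of genes.

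Whether the effect on TXNIP differed between lines was tested directly. Without the block the joint test over the 4 lines gave F = 5.73 (edgeR adjusted p 0.63), in a test that called 0.0234% of genes and 0 of the 10 members. With the block, which called 4.69% of genes, the adjusted p was 1.47e-05, and DESeq2 without a block gave 0.0118, where it called 0.576% of genes. Over BT549, HCC1806 and MDAMB231 alone, F was 6.30 (edgeR adjusted p 0.642) without the block and 70.2 (adjusted p 9.79e-06) with it, where 4.36% of genes passed. The average over those 3 lines was -0.36 (SE 0.167, edgeR adjusted p 0.366, and 6.29e-05 with the block). The average over all 4 lines, a fitted 0.98 (SE 0.688, edgeR adjusted p 0.633), is set by counts of 0 in MDAMB468 and is not a measure of size.

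MDAMB468 had next to no TXNIP. Its libraries held 6, 4 and 2 counts in shADAR1 and 0, 0 and 0 in shNT, among 24435669 to 63315021 total counts. Against a floor of 3 counts over the shNT group, the summed shADAR1 level was at least 3.45-fold higher, a value that covers counting error only. Against the same floor, the shNT levels of BT549, HCC1806 and MDAMB231 were at least 4892-fold, 1915-fold and 5110-fold above that of MDAMB468. MLX and MLXIP were both present in MDAMB468, at 23.4 ± 0.321 and 94.7 ± 6.56 CPM in shNT (SD, n = 3).

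**Figure D3:**
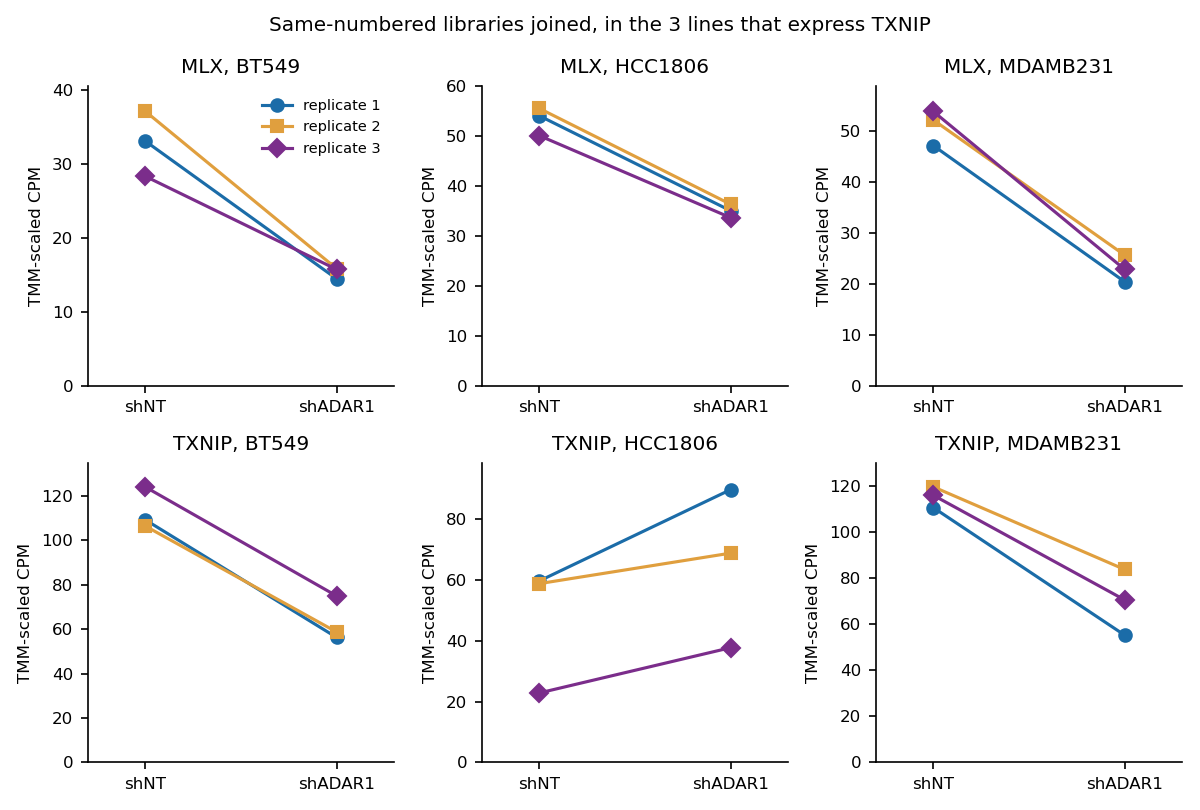
TMM-scaled CPM of MLX (upper row) and TXNIP (lower row) in the 3 lines that express TXNIP, with same-numbered shNT and shADAR1 libraries joined. MLX falls in all 9 pairs. TXNIP falls in the 3 pairs of BT549 and the 3 of MDAMB231 and rises in the 3 of HCC1806.

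ARRDC4 (ENSG00000140450, chromosome 15, 97960698 to 97973838), an alpha-arrestin like TXNIP and a target of the same dimer, had no fitted fold change below 0 in the lines that express it. HCC1806 had 25.9, 33.0 and 11.6 CPM with shADAR1 and 20.1, 33.9 and 11.6 with shNT, with a log2 fold change of 0.10 (SE 0.395, edgeR adjusted p 1). MDAMB231 had 3.55, 6.96 and 5.25 against 3.51, 6.32 and 4.33, with 0.14 (SE 0.420, edgeR adjusted p 0.984). The arms overlapped in both lines, and replicate 3 of HCC1806 was the lowest in both arms, as it was for TXNIP. Per pair, the log2 ratios in HCC1806 were 0.37, -0.04 and -0.0003, so only replicate 1 was higher in shADAR1. In MDAMB231, where TXNIP was 60.5% of shNT, ARRDC4 was 111%.

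The remaining lines had almost no ARRDC4. BT549 held 0, 6 and 2 counts in shADAR1 and 0 in each shNT library, and MDAMB468 held 0, 4 and 0 against 0, 0 and 2. In shNT, HCC1806 was at least 1201-fold and MDAMB231 at least 281-fold above BT549, against a floor of 3 counts over the group. BT549 therefore had TXNIP at 113 CPM in shNT without ARRDC4. Over HCC1806 and MDAMB231 the average effect on ARRDC4 was 0.12 (SE 0.288, edgeR adjusted p 0.983).

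MAX (ENSG00000125952, chromosome 14, 65006174 to 65102695), the dimerisation partner of MYC, MNT and the MXD proteins, had values within 0.11 of 0 in every line. BT549 had 57.3, 58.3 and 54.7 CPM in shADAR1 and 51.6, 53.1 and 53.3 in shNT, so that all shADAR1 libraries were higher, by 0.11 on the log2 scale (SE 0.0898, edgeR adjusted p 1). The arms overlapped in the other lines, with -0.08 in HCC1806 and 0.04 in MDAMB231, and the average was 0.02 (SE 0.0452, edgeR adjusted p 1). MAX overlaps FNTB and CHURC1-FNTB, as well as MIR4706 and ENSG00000264620, but shares 0 exon bases with any of them.

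MYC (ENSG00000136997, chromosome 8, 127735434 to 127741434), the growth-promoting partner of MAX, was the most abundant member per kilobase in every line. In MDAMB231 it stood at 292, 215 and 181 CPM in shADAR1 and at 219, 166 and 160 in shNT. The arms overlapped, but each shADAR1 library was above the shNT library of its number. The log2 fold change was 0.34 (SE 0.223, edgeR adjusted p 0.643), and with the replicate block it was 0.32 (adjusted p 0.00227). The values were 0.07, 0.05 and 0.18 in BT549, HCC1806 and MDAMB468, with adjusted p 1 in each, and the average was 0.16 (SE 0.111, edgeR adjusted p 0.638, and 0.00144 with the block).

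MXI1 (ENSG00000119950, chromosome 10, 110207605 to 110287365) encodes a MAX-binding repressor that opposes MYC. It had values above 0 in all 4 lines. BT549 had 14.9, 17.5 and 18.8 CPM in shADAR1 and 11.9, 11.7 and 15.1 in shNT, and MDAMB231 had 25.1, 23.8 and 26.9 against 18.5, 21.9 and 21.7. The arms were separate in MDAMB231 and met in BT549, where the highest shNT library was above the lowest shADAR1 library. The log2 fold changes were 0.41 (SE 0.141, edgeR adjusted p 0.378, and 0.00959 with the block) in BT549, then 0.21, 0.28 and 0.03 in HCC1806, MDAMB231 and MDAMB468. The average was 0.23 (SE 0.0706, edgeR adjusted p 0.0897). It passed with the block (adjusted p 0.00206), in DESeq2 (0.0319) and when genes under 10 counts in any library were left out (edgeR adjusted p 0.0456). DESeq2 called 4.89% of genes in the average, and the stricter filter 7.11%.

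MNT (ENSG00000070444, chromosome 17, 2384060 to 2401118), a repressor that pairs with MAX or MLX, had log2 fold changes between -0.06 and 0.07 in the 4 lines and an average of 0.01 (SE 0.0452, edgeR adjusted p 1). BT549 had 129, 113 and 119 CPM in shADAR1 and 118, 110 and 117 in shNT. MXD1 (ENSG00000059728, chromosome 2, 69897688 to 69942945), a repressor linked to differentiation, stood at 35.5, 33.8 and 29.95 CPM in shADAR1 and at 26.4, 27.6 and 29.6 in shNT in MDAMB231. The arms of MXD1 were separate there and overlapped elsewhere, and its average was 0.09 (SE 0.0698, edgeR adjusted p 0.667). MXD1 shares 237 exon bases on the same strand with SNRNP27, a splicing factor gene, whose average was 0.25 (SE 0.0574, edgeR adjusted p 0.0155).

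Levels differed between the lines for the whole set. Every one of the 10 genes differed in level between the 4 lines in shNT (joint edgeR test), as did 85.9% of all genes tested, so the count of members is near the background. Between single pairs of lines, 63.5% of genes differed for HCC1806 and BT549, 56.5% for MDAMB231 and BT549, 61% for MDAMB468 and BT549, 59% for MDAMB231 and HCC1806, 62.9% for MDAMB468 and HCC1806 and 61.8% for MDAMB468 and MDAMB231.

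In shNT, MLX was highest in HCC1806 and MDAMB231 (53.3 ± 2.82 and 51.0 ± 3.48 CPM, SD, n = 3), which were not told apart (edgeR adjusted p 0.634) and changed order with upper-quartile scaling. BT549 followed, and MDAMB468 was the lowest, 2.28-fold below HCC1806. MLXIP had the same upper pair, HCC1806 and MDAMB231 (edgeR adjusted p 0.759), then MDAMB468, then BT549, with a 2.87-fold range. MLXIPL ranged 48.4-fold, from MDAMB231 and HCC1806, which were not told apart (edgeR adjusted p 0.225), through MDAMB468 to BT549.

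On the MAX side, MXD1 had the widest range, 12.2-fold from HCC1806 through MDAMB468 and MDAMB231 to BT549, with each neighbour in that order past the threshold. MAX ranged 1.85-fold, with HCC1806, MDAMB231 and BT549 not told apart from their neighbours and MDAMB468 below them. MAX in HCC1806 against BT549 missed the threshold (log2 difference 0.20, edgeR adjusted p 0.063) and passed with RLE scaling (0.0371), upper-quartile scaling (0.0351), at least 10 counts in every library (0.0157) and DESeq2 (0.0205). MYC was 2.46-fold higher in HCC1806 than in BT549, and MDAMB468, MDAMB231 and BT549 were not told apart from their neighbours in the order. Without MDAMB468 shNT replicate 2, MYC in MDAMB468 passed against BT549 (edgeR adjusted p 0.0463) and against MDAMB231 (0.0486). MNT was highest in BT549, then HCC1806, then MDAMB231 and MDAMB468, which were not told apart (edgeR adjusted p 0.241). MXI1 had the narrowest range, 1.61-fold, with MDAMB231 above HCC1806 (log2 difference 0.38, edgeR adjusted p 0.0247) and no further neighbours told apart. That call was lost without HCC1806 shNT replicate 2 (0.31) or 3 (0.36), without MDAMB231 shNT replicate 2 (0.34) or 3 (0.35), and with no filter on low counts (0.37). MXI1 in HCC1806 against BT549 missed the threshold (0.31, edgeR adjusted p 0.0603) and passed with upper-quartile scaling (0.0487), at least 10 counts in every library (0.0298) and DESeq2 (0.0494). It also passed without BT549 shNT replicate 3 (edgeR adjusted p 0.0176), HCC1806 shADAR1 replicate 2 (0.0452) or HCC1806 shNT replicate 2 (0.0405). TXNIP was not told apart between MDAMB231 and BT549 (edgeR adjusted p 0.962), lower in HCC1806 and listed at 0 in MDAMB468.

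Per kilobase, MYC RNA exceeded MAX RNA in each line. The ratio of RPKM was 10.97 ± 2.03 in HCC1806 and 10.8 ± 5.31 in MDAMB468 for shNT, and 5.09 ± 0.606 in BT549 and 4.84 ± 1.37 in MDAMB231 (SD, n = 3). In shADAR1 it was 11.9 ± 2.15, 11.95 ± 3.54, 4.94 ± 0.277 and 5.78 ± 1.36 in the same order. The arms overlapped in each line.

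**Figure D4:**
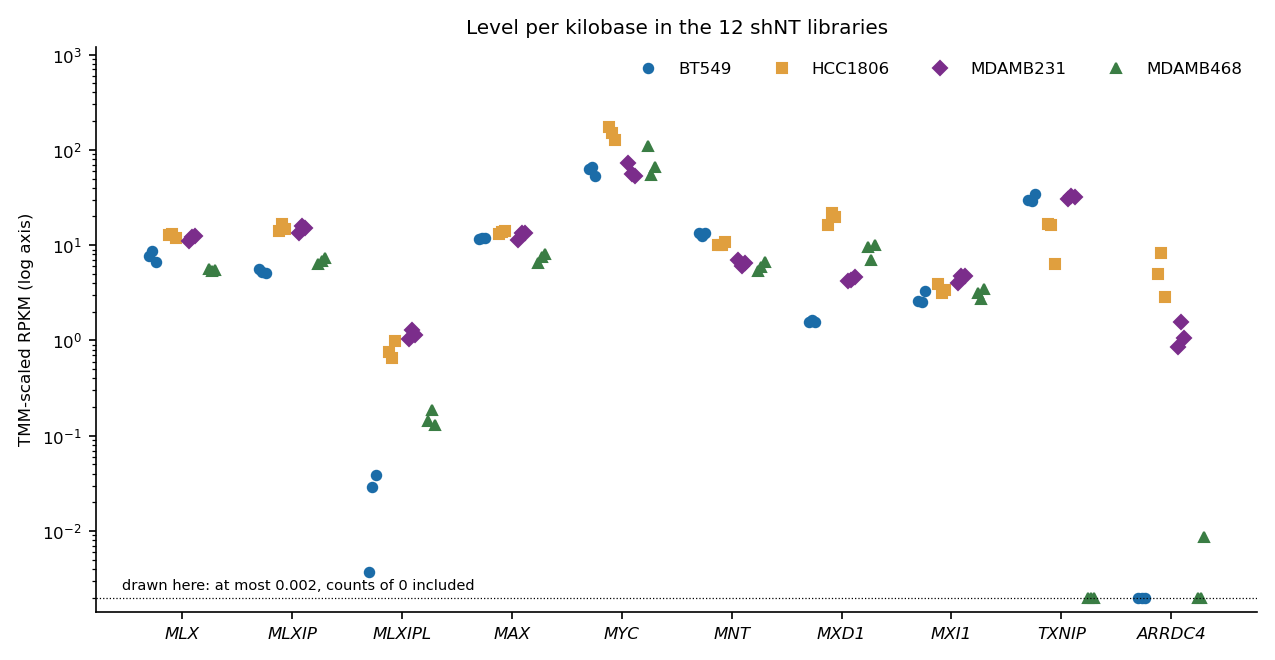
TMM-scaled RPKM of the 10 genes in the 12 shNT libraries, on a log axis, with 1 symbol per line. Values of 0 are drawn at the dotted line: 3 libraries of MDAMB468 for TXNIP, 3 of BT549 and 2 of MDAMB468 for ARRDC4. MYC is the highest in each line, and MLXIPL, TXNIP and ARRDC4 have the widest ranges.

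Other genes of the pathway were read from 5 lists. Of 5 further MYC and MXD family genes, 0 were called in the average of the 4 lines, with a median log2 fold change of 0.13 (all genes 0.02). The one with the smallest p was MXD3, a MAX-binding repressor, at 0.13 (SE 0.0561, edgeR adjusted p 0.277, and 0.0365 with the block). Its values were -0.17, 0.12, 0.22 and 0.37 in BT549, HCC1806, MDAMB231 and MDAMB468. Of 17 cofactors of the network and regulators of MYC protein, 1 fell, 0 rose and the median was -0.03. The gene that fell was SKP2, part of a ubiquitin ligase that acts on MYC, at -0.58 (SE 0.0631, edgeR adjusted p 2.22e-06). SKP2 went from 85.4 ± 7.98 to 53.7 ± 3.63 CPM in BT549 and from 40.2 ± 7.71 to 19.7 ± 2.09 in MDAMB231 (SD, n = 3), with log2 fold changes of -0.67 and -1.01 that both passed, and -0.33 and -0.32 in HCC1806 and MDAMB468 that did not. With the block the edgeR adjusted p of SKP2 was 0.0247 in HCC1806 and 0.0424 in MDAMB468, where the replicate numbers were not read as pairs. The BT549 call was lost without shADAR1 replicate 1 (-0.63), shADAR1 replicate 3 (-0.65) or shNT replicate 2 (-0.59). With the block, 6 of the 17 passed in the average, where 13.2% of all genes did: AURKA rose and FBXW7, HCFC1, HUWE1, RUVBL1 and SKP2 fell.

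Of 34 MYC target genes, mostly of ribosome making and nucleotide synthesis, 0 were called in any line or in the average. Their values leaned in different directions by line: 31 of 34 were above 0 in MDAMB231 (median 0.16) and 6 of 34 in HCC1806 (median -0.06), with 22 in BT549 (0.04) and 11 in MDAMB468 (-0.02). Of all genes tested, 49.7% were above 0 in MDAMB231, 50.8% in HCC1806, 52.7% in BT549 and 52.3% in MDAMB468. Their medians lay between 0.00 and 0.01 in these lines. MYC itself had its highest value in MDAMB231, 0.34 (edgeR adjusted p 0.643). Its next highest was 0.18 in MDAMB468, where 11 of the 34 were above 0. Whether the targets moved with MYC was not tested. With the block, 8 of the 34 rose and 0 fell in MDAMB231 (BOP1, DKC1, EIF4A1, NOP16, NPM1, PAICS, PRMT5 and SRM), where 11.4% of all genes passed in either direction. In HCC1806, 0 rose and 3 fell (CAD, HSPE1 and TFRC), beside 2.1% of all genes, and in BT549 0 rose and 2 fell (CAD and TFRC), beside 5.14%. In the average, CAD, the first enzyme of pyrimidine synthesis, had the smallest p of the list, at -0.19 (SE 0.0668, edgeR adjusted p 0.155, and 3.29e-05 with the block), and 5 of the 34 passed with the block, near the 13.2% of all genes.

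The glucose-response list of MondoA and ChREBP, without TXNIP and ARRDC4, had 22 of its 23 genes tested. In the average 1 fell and 0 rose, with a median of -0.02. The gene that fell was ACLY, the enzyme that makes acetyl-CoA for lipid synthesis, at -0.22 (SE 0.0480, edgeR adjusted p 0.00777). ACLY had values of -0.21, -0.27, -0.34 and -0.07 in BT549, HCC1806, MDAMB231 and MDAMB468, none past the threshold in a single line without the block. With it, the edgeR adjusted p of ACLY was 0.0357 in BT549, 0.0108 for HCC1806 and 0.000201 for MDAMB231. By line, 13 of the 22 genes had values above 0 in BT549 (median 0.04), 4 in HCC1806 (-0.13), 11 in MDAMB231 (-0.0011) and 15 in MDAMB468 (0.03). With the block, 4 rose (BHLHE40, HK2, KLF10 and ME1) and 1 fell (ACLY) in BT549, 1 rose (KLF10) and 2 fell (ACLY and FASN) in HCC1806, and 0 rose and 2 fell (ACLY and SCD) in MDAMB231. In the average 4 of the 22 passed with the block, near the 13.2% of all genes: BHLHE40 and KLF10 rose, ACLY and ELOVL6 fell. The list of TXNIP partners and other alpha-arrestins had 9 of its 10 genes tested, 0 called and a median of -0.0038. With the block 2 of the 9 passed in the average, beside the same 13.2%, ARRDC3 higher and ARRDC1 lower. By line, the blocked fit called SLC2A1 higher and SLC2A3 lower in BT549, beside 5.14% of all genes. It called SLC2A3 lower in MDAMB231, beside 11.4%, and 0 of the list in HCC1806, beside 2.1%. In MDAMB468, where the numbers were not read as pairs, it called ARRDC3 higher.

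The genes whose levels ran most like MLX were found by Pearson correlation of log2 CPM over the 24 libraries after the mean of each line was taken off, among the 10999 genes that averaged 2 or more on that scale. They were NMD3 (0.97), UBE2N (0.97), MORF4L1 (0.96), DESI2 (0.96) and ANTXR1 (0.96). The most opposite were MDM2 (-0.96), KATNAL1 (-0.94) and SS18 (-0.94). The libraries share their lines and arms, so these values largely rank genes by how evenly they moved with the arm. None of the other members came near: MLXIP had 0.45 (rank 1193), TXNIP 0.13 (rank 3648) and MXI1 -0.68 (rank 10797). The remaining 6 lay between -0.30 and -0.16. Ranked by Spearman correlation, 2 of the 5 genes most like MLX stayed among the top 5, and after taking off the mean of each group instead, 0 did.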

How the data were processed

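RNA was measured in 24 libraries, 3 for each of the 4 lines and 2 arms. The deposited files hold whole-number counts per gene, CPM (counts scaled to the library total) and RPKM (CPM per kilobase of listed gene length), per the file headers. The submitters' processing notes name bcl2fastq, STAR, Subread, featureCounts and edgeR. The genome build, annotation and strand setting are not given in the sources used here. The coordinates of 10 of 10 members equal those of GENCODE 29 on GRCh38, and symbols were matched for 33972 genes.

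Tests ran on the deposited counts with edgeR 4.0.16 in R 4.3.3: filterByExpr (21352 genes kept), TMM scaling (factors 0.924 to 1.12), 1 coefficient for each of the 8 groups, quasi-likelihood F tests, 2-sided, Benjamini-Hochberg adjusted over all genes tested, threshold 0.05. SE values were derived from fold change and F. RPKM values printed are scaled CPM per kilobase. No replicates agreed within counting noise (chi-square over degrees of freedom 11.8 or more). The labels call them biological, and the tests set each difference between groups against the spread between these samples. The procedure was tested on simulated counts. Floors and ratios at low counts cover counting error only.

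The labels number the replicates but do not say that same-numbered libraries of the arms were paired. Pairing was read from these same counts, with a cut-off of 0.1. Same-numbered libraries of the arms deviated together from their group means. Correlations over all genes tested were 0.139, 0.158 and 0.25 in BT549, 0.242, 0.332 and 0.443 in HCC1806 and 0.204, 0.348 and 0.149 in MDAMB231, each over 0.1, and so were read as pairs. In MDAMB468 they were 0.165, 0.166 and 0.0651 and were not, although the block covers all lines in the blocked fit. Only replicate 3 was under 0.1 there. With low-count genes left out (11794 kept), the MDAMB468 correlations were 0.416, 0.368 and 0.212, each over 0.1. Those of the other lines ran from 0.349 to 0.748 on the same genes. The reading of MDAMB468 as unpaired therefore depends on the genes used. Blocked values stand beside unblocked ones where the pairing changed a call described in the text.

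The members, gene lists and alternatives were chosen with earlier results of these data known. The alternatives were a replicate block, RLE and upper-quartile scaling, DESeq2 1.42.0, other filters, removal of structural RNA and mitochondrial genes, a line's own libraries and leaving out each library. Named genes were the members, genes that overlap them, ADAR, the genes with the smallest p of each list and those most and least like MLX. The genes that passed with the block were named after their values were seen.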

Additional observations from a re-analysis of the deposited data

Results flagged for a closer look

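The effect of the ADAR1 hairpin on TXNIP differed between the lines when the replicate number was held as a block (edgeR adjusted p 1.47e-05 over all genes tested). TXNIP moved down in 3 of 3 same-numbered pairs in BT549 and in MDAMB231 and up in 3 of 3 in HCC1806, while MLX moved down in all of them. The test includes MDAMB468, where TXNIP held 2 to 6 counts in shADAR1 and 0 in shNT, and without that line the blocked adjusted p was 9.79e-06. Without the block the difference did not pass (edgeR adjusted p 0.63). The labels do not state the pairing that the block assumes.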

How the results depend on the processing

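Without MLX, the count of members called was 0 of 9 in each line and in the average under RLE and upper-quartile scaling, no filter on low counts and removal of structural RNA and mitochondrial genes. With the replicate block it was 2, 1 and 2 in BT549, HCC1806 and MDAMB231 and 2 in the average. TXNIP passed in the difference between lines with the block, beside 4.69% of all genes. Using only the libraries compared it was 1 in BT549 and 1 in MDAMB231 (TXNIP in both). At least 10 counts in every library gave 1 in the average (MXI1) and 0 in the difference between lines. DESeq2 gave 1 in the average (MXI1) and called TXNIP in the difference, beside 0.576% of all genes. The filter of at least 10 counts removes TXNIP, ARRDC4 and MLXIPL, and the block cannot give contrasts of shNT between lines. Leaving out each library gave 0 to 1 in the average: MXI1 passed without BT549 shNT replicate 3 (0.26) or HCC1806 shADAR1 replicate 2 (0.26). Lists called 1, 6, 5, 4 and 2 genes with the block (family, cofactors, MYC targets, glucose response, TXNIP partners). MYC targets called 1 in DESeq2 and 0 to 1 on leaving out a library (CAD, without MDAMB231 shADAR1 replicate 2), and cofactors 1 to 2 (AURKA, without HCC1806 shNT replicate 1). The causes of these changes were not tested.

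Averaging only over lines that express the gene, a choice made after seeing the data, turned TXNIP to -0.36 and MLXIPL to -0.022. Upper-quartile scaling turned the MDAMB231 against HCC1806 level of MLX to 0.0028 and of MLXIP to 0.025, and removing structural RNA and mitochondrial genes turned MLXIP to 0.0062. No filter turned MAX in MDAMB468 to 0.0057 and MYC in MDAMB231 against BT549 to -0.016.

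Values near 0 changed sign on leaving out 1 library. In HCC1806 the ranges were -0.21 to 0.37 (MLXIPL), -0.086 to 0.22 (MYC), -0.15 to 0.060 (MXD1) and -0.23 to 0.58 (ARRDC4). In MDAMB231 they were -0.029 to 0.088 (MAX), -0.0079 to 0.10 (MNT) and -0.12 to 0.42 (ARRDC4). In MDAMB468 they were -0.074 to 0.071 (MAX), -0.030 to 0.54 (MYC), -0.076 to 0.067 (MNT), -0.062 to 0.21 (MXD1), -0.062 to 0.11 (MXI1) and -2.79 to 3.49 (ARRDC4). MYC ran from -0.020 to 0.14 in BT549, and MNT from -0.012 to 0.030 in the average. Between lines in shNT, MLXIP ran from -0.10 to 0.032 and TXNIP from -0.019 to 0.093 for their upper pairs. MYC ran from -0.15 to 0.077 (MDAMB231 against BT549), -0.018 to 0.55 (MDAMB468 against BT549) and -0.023 to 0.54 (MDAMB468 against MDAMB231), and ARRDC4 from 0.00 to 3.38 (MDAMB468 against BT549). The level of MXI1 in MDAMB231 above HCC1806 did not pass without HCC1806 shNT replicate 2 (0.31) or 3 (0.36), or without MDAMB231 shNT replicate 2 (0.34) or 3 (0.35), nor with no filter (0.37). Low counts, 0 to 6 per library, limit what can be read of TXNIP in MDAMB468 and of ARRDC4 in BT549 and MDAMB468.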
